A study of Mus musculus with 6 samples.

Results

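The genes described are those whose products form the proteasome, its assembly chaperones and its activators. They were chosen by symbol: every gene named Psma, Psmb, Psmc, Psmd, Psme, Psmf or Psmg followed by a digit, with 4 pseudogenes dropped. The rule gave 50 genes, of which 45 had at least 1 intron listed in all 4 total RNA tables. These tables held 275 proteasome introns of 68322 introns in all, and 268 of them had enough reads to be tested, of 63309 tested in all. Psmc3ip enters by the letters of its name only: it codes for a partner of recombinases in meiosis and is no proteasome subunit.

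The proteasome is the cell's main machine for degrading proteins tagged with ubiquitin. Its 20S core is a stack of rings: the outer rings of alpha subunits gate the entrance, and the inner rings of beta subunits hold the proteolytic sites. The 19S regulatory particle caps the core, with a ring of ATPases that unfolds the substrate, non-ATPase base subunits that bind ubiquitin and shuttle factors, and a lid that removes the ubiquitin chain. Dedicated chaperones put the rings together, and proteasome subunit genes are known to be regulated together. Pluripotent stem cells have been described as having high proteasome activity.

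RNA came from E14 mouse embryonic stem cells of a 129/Ola background, grown with serum and leukemia inhibitory factor and transfected 24 hours after seeding with an siRNA against Son or a control siRNA, with RNA taken 24 hours after transfection. Son codes for a nuclear speckle protein that takes part in splicing. After depletion of ribosomal RNA, total RNA of each siRNA was sequenced in 2 samples. Poly(A) RNA was read as Nanopore cDNA in 1 sample per siRNA. The labels give a single cell line and 1 siRNA treatment per group, with no untransfected cells and no rescue, and do not say whether replicates were separate cultures, so p-values measure the spread between these samples, which may be technical.

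Split reads at 5′ splice sites numbered 10556187 to 16012286 per total RNA library, with replicate 2 of both groups the shallower, and the long reads 3080426 in control and 1874851 in knockdown. Son itself had 283 and 314 CPM (spliced reads scaled to a common library size) in control and 93.5 and 102 CPM in knockdown, a fall of 1.61 on the log2 scale (standard error 0.0869), and the long reads of Son went from 217 to 37. Of 12 stem cell markers 11 were listed, with summed levels between 5449 and 5732 CPM in the 4 libraries, while Sox2 was not listed in all tables. A level here needs a listed intron, so a gene that was not listed may still be expressed. Of all marker lists here, 1 gene passed the test, the stem cell marker Tfcp2l1, a transcription factor of pluripotent cells, with 816 and 795 CPM in control and 906 and 981 in knockdown, a rise of 0.23 on the log2 scale (edgeR adjusted p = 0.0354). Of 8 fibroblast markers 2 were listed, with summed levels between 384 and 428 CPM, and Col1a1, Col1a2, Col3a1, Dcn, Pdgfra and Postn were not. Of 6 primitive endoderm markers 2 were listed (422 to 493 CPM, without Gata6 and Sox17), of 5 trophectoderm markers 2 (26.2 to 35.6 CPM, without Cdx2 and Elf5) and of 4 mesoderm markers 1 (2.20 to 4.72 CPM). The part of these markers in the results was not tested. In bulk RNA of this kind, fewer cells of a type and less RNA per cell cannot be told apart.

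The results turn on a small number of introns, whose exon joints are shown so that each can be found. Each line gives 15 bases of exon before and 15 bases after the intron, from the GENCODE M21 transcripts (GRCm38), with the last 3 exon bases before the intron and the first 2 after it in capitals. Psmb6 intron 1 is the 1 proteasome intron that passed the test. The Psmd4 introns lie in the gene with both lower splicing efficiency and fewer spliced reads. Psmd14 intron 4 and Psmc3 intron 9 had large differences towards lower efficiency that did not pass, and Psmf1 intron 6 and Psmd9 intron 3 had the opposite direction.
Psmb6 intron 1: gaagtctccacaGGGACcacgatcatggct
Psmd4 intron 6: cctgaattggccCTGGCccttcgagtctct
Psmd4 intron 5: aattttggggaaGAGGAggtgaacacagag
Psmd14 intron 4: ttggccttgctaAAGATgttaaaacatggt
Psmc3 intron 9: aacactcaagtgAAGGTaattgcagccact
Psmf1 intron 6: gaccagcccatcTGGACctaaccctgacca
Psmd9 intron 3: ccagccagtattGCGGGcctgcaagtggat
All 7 lie between coding exons. Psmb6 intron 1 spans chr11:70525496-70525884 on the plus strand of GRCm38, Psmd4 intron 6 spans chr3:95034027-95034565 and Psmd4 intron 5 chr3:95034782-95034941, both on the minus strand. Psmd14 intron 4 is at chr2:61760708-61760974, Psmc3 intron 9 at chr2:91057862-91058009 and Psmd9 intron 3 at chr5:123239751-123241831, all on the plus strand, and Psmf1 intron 6 is at chr2:151718686-151719484 on the minus strand. At the joints, G was the last exon base before 76.9% of 268 proteasome introns and before 81.3% of 63049 tested introns with a matched sequence. AG stood before 57.5% and 57.6%, and G stood after 48.9% and 49.3%.

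Splicing at the listed proteasome introns was nearly complete in both groups. Protein-coding models of these genes have 483 annotated introns. An annotated exon overlaps 206 of those, and few of the 206 were listed, so the efficiencies say little about them. Splicing efficiency is the share of split reads among the reads at an intron's junctions. Its median over the 275 proteasome introns was 0.977 and 0.968 in control replicates 1 and 2 and 0.977 and 0.969 in knockdown replicates 1 and 2. The mean of these medians was 0.972 ± 0.00646 in control and 0.973 ± 0.00565 in knockdown (SD, n = 2). Over all 68322 introns the same means were 0.939 ± 0.00521 and 0.933 ± 0.00744. The difference between the groups in proteasome introns, 0.00044, was smaller than the spread between replicates. Of the 268 tested introns, 225 had an efficiency over 0.9 in every library and 16 were under 0.8 in at least 1.

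In the edgeR quasi-likelihood test, 1 of the 268 proteasome introns (0.373%) passed an adjusted p of 0.05, against 1.76% of all 63309 tested introns, of which 1.71% had lower and 0.0442% higher efficiency in the knockdown. At an unadjusted p under 0.05 there were 8 proteasome introns with lower and 6 with higher efficiency, together 5.22%, against 9.72% of all introns. The change is given as the log2 odds ratio of unsplit to split reads, above 0 where the knockdown had relatively more unsplit reads. Its median was -3.61e-05 over proteasome introns and 0.12 over all introns, with 134 of the 268 (50.0%, against 58.0% of all introns) above 0. This median moved with single libraries and with the scaling, and the median of all introns moved with it. Without knockdown replicate 2 it was -0.27, against -0.0046 over all introns, and without control replicate 1 it was -0.16 against 0.04. Without knockdown replicate 1 it was 0.18 against 0.26, and without control replicate 2 it was 0.15 against 0.23. With split and unsplit reads scaled separately it was -0.14 against -0.01. The proteasome median was thus the lower one under each of these settings, while its sign was not fixed. Libraries of the 2 groups did not overlap in 33 introns with lower knockdown efficiency (12.3%, against 24.3% of all introns) and in 43 with higher knockdown efficiency (16.0%, against 13.1%).

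Of the 1112 introns that passed in the whole table, 832 were short, and 65 of the 268 proteasome introns (24.3%) had such lengths. In the shortest quintile of all tested introns, 37 to 283 nt long, 6.55% passed the test with a median log2 odds ratio of 0.43. The proteasome introns of that length had a median of 0.13, and 0 of them passed in edgeR or DESeq2. At an unadjusted edgeR p under 0.05 there were 5 of them (7.69%, against 23.1% of all introns of that length). In the quintile with the most GC in the flanking exons, 56.1% to 79.0% GC, 4.04% of all introns passed with a median of 0.36, while the 24 proteasome introns had a median of 0.08 and 1 of them, Psmb6 intron 1, passed. Proteasome introns were read more deeply, with a median of 895.9 junction reads per library against 201.5 over all introns, and were flanked by exons of lower GC, 47.0% against 50.0% at the median. Their median length was 975 nt against 1128 nt. The part of depth, length and GC in these differences was not tested.

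**Figure D1:**
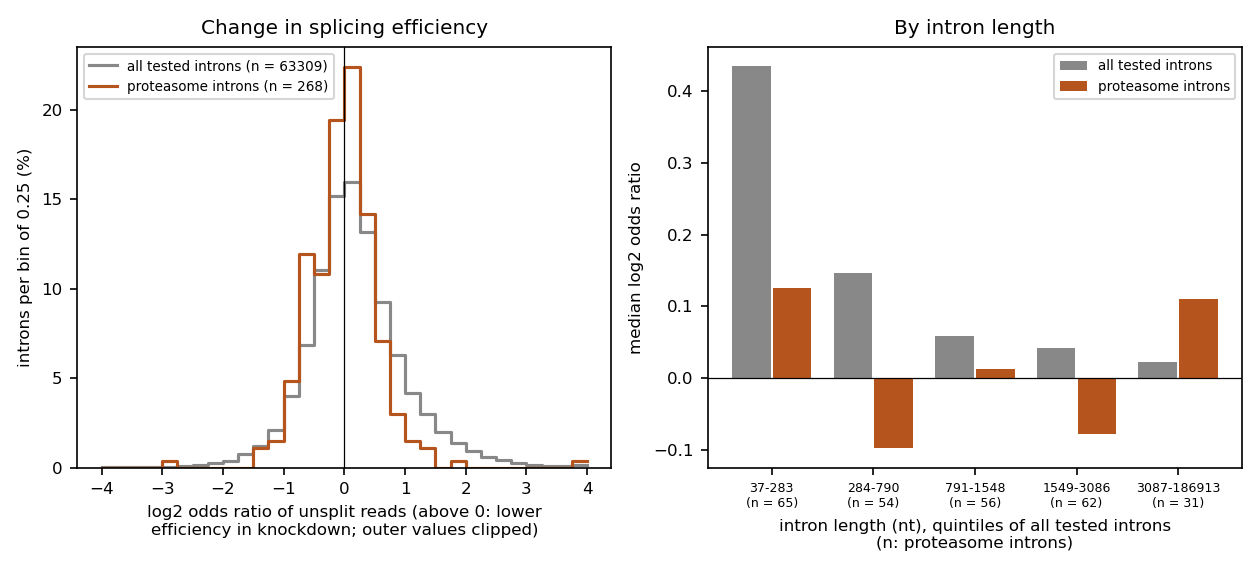
Left, share of introns per bin of the log2 odds ratio of unsplit to split reads, knockdown against control, for 268 proteasome introns and all 63309 tested introns; right, bars of the median log2 odds ratio by quintile of intron length. The proteasome curve is centred on 0 and the curve of all introns on 0.12; in the shortest quintile the medians are 0.13 and 0.43.

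Psmb6 codes for a catalytic beta subunit of the 20S core, the one with caspase-like activity. Its intron 1, 389 nt long, had 5333 split and 24 unsplit reads in control replicate 1 and 3446 and 22 in control replicate 2. In the knockdown it had 4878 split and 55 unsplit reads in replicate 1 and 2611 and 43 in replicate 2. The efficiencies were thus 0.996 and 0.994 in control against 0.989 and 0.984 in knockdown, and the groups did not overlap. The log2 odds ratio was 1.34 (standard error 0.352, edgeR adjusted p = 0.0186), a fall of under 1 percentage point in an intron that was spliced in nearly all reads. All its unsplit reads, 46 in control and 98 in knockdown, were at the 3′ junction, and 0 were at the 5′ junction in any library. Whether these reads came from RNA that kept the whole intron was not tested. Intron 3 of Psmb6 had efficiencies of 0.944 and 0.944 in control and 0.928 and 0.904 in knockdown, which did not overlap, with an edgeR adjusted p of 0.702. Intron 5 had nearly equal values in both groups, with a log2 odds ratio of 0.01. Leaving out control replicate 1, control replicate 2 or knockdown replicate 2 brought the adjusted p of intron 1 to 0.575, 0.0725 and 0.195, with log2 odds ratios of 1.08, 1.58 and 1.08. DESeq2 gave a log2 odds ratio of 1.34 with an adjusted p of 0.273.

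Summed over a gene's introns, splicing efficiency fell in 2 of the 45 proteasome genes, Psmb6 and Psmd4, and rose in 0 (edgeR, adjusted p under 0.05). That is 4.44%, against 7.11% of all 9370 genes tested, of which 6.98% were lower. At an unadjusted p under 0.05, 3 proteasome genes were lower and 0 higher, together 6.67%, against 13.8% of all genes (1187 lower and 106 higher). DESeq2 called 0 proteasome genes and 506 genes in all, and limma called 0 in all. The groups did not overlap in 8 genes with lower efficiency (17.8%, against 27.1% of all genes) and in 4 with higher efficiency (8.89%, against 11.2%). The median log2 odds ratio was -0.0044 over the proteasome genes and 0.09 over all genes.

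Psmb6 as a whole had efficiencies of 0.987 and 0.983 in control and 0.980 and 0.966 in knockdown. Both knockdown libraries lay below both controls, with a log2 odds ratio of 0.85 (standard error 0.268, edgeR adjusted p = 0.0249). Psmd4 codes for the ubiquitin receptor of the 19S base also called Rpn10. Its efficiencies were 0.966 and 0.948 in control and 0.940 and 0.905 in knockdown, again without overlap, with a log2 odds ratio of 0.87 (standard error 0.292, edgeR adjusted p = 0.0424). Of its 3 listed introns, intron 6 (539 nt) had efficiencies of 0.852 and 0.695 in control and 0.635 and 0.673 in knockdown, and intron 5 (160 nt) 0.838 and 0.791 against 0.728 and 0.674. Both were lower in each knockdown library than in each control, and neither passed by itself, with edgeR adjusted p of 0.651 and 0.732. Intron 1 (5762 nt) was spliced in 0.985 and 0.989 of reads in control and 0.986 and 0.969 in knockdown, so its groups overlapped. Neither gene kept its call without control replicate 1, control replicate 2 or knockdown replicate 2: the log2 odds ratios were then 0.66, 1.03 and 0.45 for Psmb6 and 0.54, 1.20 and 0.54 for Psmd4.

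By role, the changes in intron efficiency were small in every class. The 38 introns of the alpha ring had a median log2 odds ratio of -0.02, with 6 introns lower and 8 higher in the knockdown without overlap, where over all introns 24.3% were lower and 13.1% higher. The 20 introns of the constitutive beta ring had 0.09, with 6 lower and 1 higher. For the 19S particle the medians were -0.14 over 44 ATPase introns, 0.05 over 35 introns of the non-ATPase base and 0.09 over 47 lid introns. In the same order, 4, 6 and 6 introns were lower and 8, 5 and 7 higher without overlap. Assembly chaperones (22 introns) were at -0.19 and the activators with the inhibitor (56 introns) at -0.07, with 5 and 9 introns higher against 2 and 3 lower.

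Apart from those of Psmd4, the largest differences towards lower mean efficiency were in lid and ATPase genes, counting introns that no library covered with fewer than 50 reads. Psmd14 codes for the lid's deubiquitinase, and its intron 4 (267 nt) had efficiencies of 0.939 and 0.954 in control and 0.886 and 0.869 in knockdown. These groups did not overlap, and the edgeR adjusted p was 0.369. Psmc3 codes for an ATPase of the ring, and its intron 9 (148 nt) had 0.875 and 0.916 in control and 0.888 and 0.750 in knockdown, where replicate 2 alone was low. Psmd11 codes for a lid scaffold subunit. Its alternative introns 3 and 4 of the model Psmd11-206 and intron 3 of the model Psmd11-211, both annotated as targets of nonsense-mediated decay, were among the least spliced of all proteasome introns. Intron 3 of Psmd11-206 (129 nt) had 0.374 and 0.443 in control and 0.471 and 0.240 in knockdown, and intron 4 had 0.680 and 0.718 against 0.741 and 0.482. Intron 3 of Psmd11-211 had 0.727 and 0.525 against 0.640 and 0.525. In all 3 the groups overlapped. Over its 12 listed introns, Psmd11 had efficiencies of 0.979 and 0.975 in control and 0.980 and 0.974 in knockdown.

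The largest differences towards higher mean efficiency did not pass the test either. Psmd9 codes for a chaperone of the ATPase ring, and its intron 3 (2081 nt) had 0.732 and 0.604 in control and 0.734 and 0.80 in knockdown (edgeR adjusted p = 0.850). The higher control library and the lower knockdown library nearly met. Psma5 codes for an alpha subunit, and intron 2 of its decay-annotated model Psma5-202 (88 nt) had 0.789 and 0.688 against 0.869 and 0.754, with overlap. Psmf1 codes for the proteasome inhibitor PI31, and its intron 6 (799 nt) had 0.915 and 0.894 against 0.953 and 0.940, without overlap (edgeR adjusted p = 0.584). With 5′ junction reads alone, the difference in Psmf1 intron 6 had the opposite sign, with a log2 odds ratio of 0.18. Intron 6 of Psmc3ip, the gene that shares only the name, was also among the 5 least spliced in control, at 0.771 and 0.622, with 0.699 and 0.679 in knockdown.

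**Figure D2:**
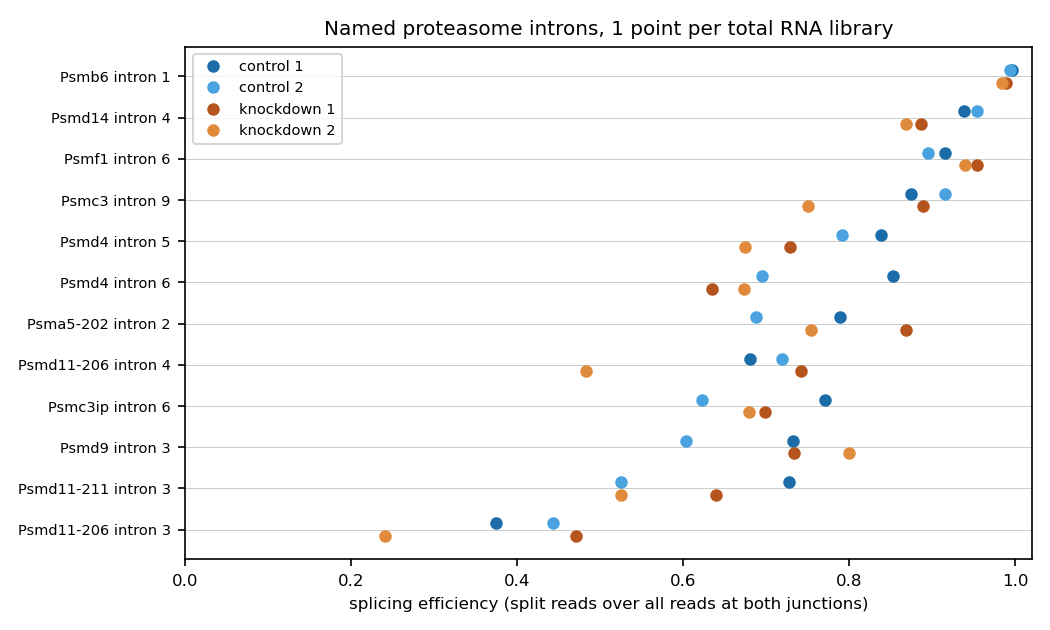
Splicing efficiency (x axis, share of split reads) of 12 named proteasome introns, 1 point per total RNA library. Both knockdown points lie left of both control points for Psmb6 intron 1, Psmd14 intron 4 and Psmd4 introns 5 and 6, while the points of the 3 Psmd11 introns overlap.

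The amounts of spliced proteasome RNA differed little between the groups. Spliced reads are the split reads at 5′ junctions summed over a gene's introns, scaled with TMM to CPM. In edgeR, 3 of the 45 genes passed an adjusted p of 0.05 (6.67%, against 8.72% of all 9474 genes tested): 2 fell, Psmc4 and Psmd4 (6.76% of all genes fell), and 1 rose, Psmg1 (1.96% rose). DESeq2 called Psmc4 and Psmg1. At an unadjusted p under 0.05 edgeR gave 10 genes (22.2%, against 19.7% of all genes): Psmb6, Psmc3, Psmc4, Psmc5, Psmd3, Psmd4, Psmd5, Psme4, Psmf1 and Psmg1. The median log2 fold change was -0.05 over the proteasome genes and 0.01 over all genes. Below 0 were 30 of the proteasome genes and above 0 were 15, against 4635 and 4839 of all 9474 genes. Of the 45, 37 lay within 0.25 of 0 on the log2 scale (82.2%, against 70.7% of all genes). The groups did not overlap in 14 genes with fewer spliced reads (31.1%, against 24.6% of all genes) and in 8 with more (17.8%, against 24.0%).

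These genes were among the well expressed ones. Per listed intron, their median control level was 38.2 CPM against 6.02 over all tested genes. This scale depends on which introns of a gene were listed, and the long reads ranked some genes otherwise. In the control long reads Psmb10 had 308 reads and Psma8 had 13. Psmb5, at 8.26 CPM per intron, had 1267 control long reads, where Psmb7 had 724. The alpha subunit gene Psma3 had the highest level at 111 CPM per intron, followed by the beta subunit genes Psmb2 at 95.9 and Psmb7 at 93.7. Lowest were Psmg4, a chaperone of the alpha ring, at 4.90, Psmb10, an inducible catalytic beta subunit, at 2.17, and Psma8, the alpha subunit known from testis, at 2.05.

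In the alpha ring, 0 of 8 genes passed the test for spliced reads. Psma1 had the lowest change, with 286 and 279 CPM in control and 262 and 263 in knockdown, a log2 fold change of -0.11. Its groups did not overlap (adjusted p = 0.472 in edgeR), and its splicing efficiency was slightly higher in both knockdown libraries, 0.986 and 0.985 against 0.984 and 0.981. Psma8 had the highest change at 0.46, with only 2.26 and 1.84 CPM in control against 2.91 and 2.79. Its efficiency was 1.00 in 3 libraries and 0.898 in knockdown replicate 1, which gave a log2 odds ratio of 4.84 from a single intron (edgeR adjusted p = 0.110).

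In the constitutive beta ring, 0 of 7 genes passed, and changes ran from -0.20 in Psmb6 to 0.10 in Psmb5, the chymotrypsin-like catalytic subunit. Psmb6 had 222 and 214 CPM in control and 208 and 170 in knockdown, both below the controls, with an edgeR adjusted p of 0.210. Psmb5 had 17.6 and 15.5 against 21.3 and 13.8, with overlap. Its efficiency also overlapped, at 0.946 and 0.955 against 0.974 and 0.932. Psmb10, the inducible subunit with 2 listed introns, had 4.33 and 4.35 against 4.13 and 3.75.

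The smallest adjusted p for spliced reads was in the ATPase ring. Psmc4, an ATPase subunit, had 270 and 276 CPM in control and 221 and 207 in knockdown, or 273 ± 3.85 against 214 ± 9.68 (SD, n = 2), with no overlap. Its spliced reads fell by 0.35 on the log2 scale (standard error 0.0770, edgeR adjusted p = 0.00454). Its splicing efficiency was 0.987 and 0.982 in control and 0.980 and 0.980 in knockdown, below the controls without passing the test (edgeR adjusted p = 0.701). Psmc3 was just outside the threshold at -0.33 (edgeR adjusted p = 0.0525), with 114 and 119 CPM against 103 and 82.5, and it had the highest log2 odds ratio of the ring, 0.47. Of the 6 ATPase genes, whose median was -0.18, 5 were below 0, against 4635 of all 9474 genes. Psmc1 had the highest change at 0.06, with 349 and 380 against 377 and 384, and Psmc2 had the lowest log2 odds ratio, -0.36.

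Among the non-ATPase base subunits, Psmd4 had 71.5 and 69.5 CPM in control and 61.3 and 40.2 in knockdown. Its spliced reads fell by 0.46 on the log2 scale (standard error 0.140, edgeR adjusted p = 0.0427), and both knockdown libraries lay below the controls. Replicate 2 carried much of this: without it the log2 fold change was -0.20 and the adjusted p 0.232. The large scaffold subunits Psmd1 and Psmd2 were at -0.05 and -0.01, with log2 odds ratios of splicing of -0.02 and 0.09. In the lid, 0 of 8 genes passed. Psmd3, a structural lid subunit, had the lowest value at -0.22, with 177 and 173 CPM against 161 and 140, and Psmd7, the partner of the deubiquitinase, the highest at 0.16, with 245 and 268 against 302 and 271. The same genes marked the range of splicing, with log2 odds ratios of 0.32 for Psmd3 and -0.30 for Psmd7.

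Among the assembly chaperones, whose median was 0.10, 4 of 6 genes were above 0, against 4839 of all 9474 genes. Psmg1, a chaperone of the alpha ring, had 207 and 198 CPM in control and 230 and 264 in knockdown, and the groups did not overlap. Its spliced reads rose by 0.29 on the log2 scale (standard error 0.0831, edgeR adjusted p = 0.0320), while its splicing efficiency overlapped between the groups. Psmd5, a chaperone of the base, was outside the threshold at 0.25 (edgeR adjusted p = 0.0811), with 225 and 215 against 239 and 286. Psmg4 had the lowest value of all proteasome genes, -0.59, from 1 intron with 3.82 and 5.99 CPM against 4.07 and 2.12, which overlapped. Psmd9 had the lowest log2 odds ratio of splicing in the class, -0.64, and Psmg4 the highest, 0.74, neither passing the test.

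The activators and the inhibitor gave 0 calls among 5 genes. Psmf1 had 24.2 and 24.8 CPM in control and 29.8 and 34.5 in knockdown, without overlap and with a log2 fold change of 0.38 (adjusted p = 0.106 in edgeR). Psme2, a subunit of the 11S activator, had the lowest change at -0.12, with 29.4 and 23.2 against 26.8 and 21.7. Psme2 also had the highest log2 odds ratio, 0.76, with efficiencies of 0.991 and 0.990 against 0.985 and 0.983, and its partner Psme1 the lowest, -0.46, with 0.966 and 0.966 against 0.969 and 0.982. Neither passed the test.

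The 3 calls for spliced reads were lost without either control library, while the fold changes stayed near their values. Leaving out control replicate 1 or control replicate 2 gave 0 calls among the proteasome genes and 381 and 394 over all genes. The log2 fold change was then -0.37 and -0.34 for Psmc4 (edgeR adjusted p 0.107 and 0.168), -0.45 and -0.49 for Psmd4 and 0.32 and 0.26 for Psmg1. Leaving out knockdown replicate 1 gave 16 calls (35.6%, against 23.1% of all 9484 genes then tested), and leaving out knockdown replicate 2 gave 7 of 45 (against 1138 of 9523). With the best covered intron of each gene alone, 0 passed (290 of all genes did), with log2 fold changes of -0.33 for Psmc4, -0.46 for Psmd4 and 0.28 for Psmg1.

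**Figure D3:**
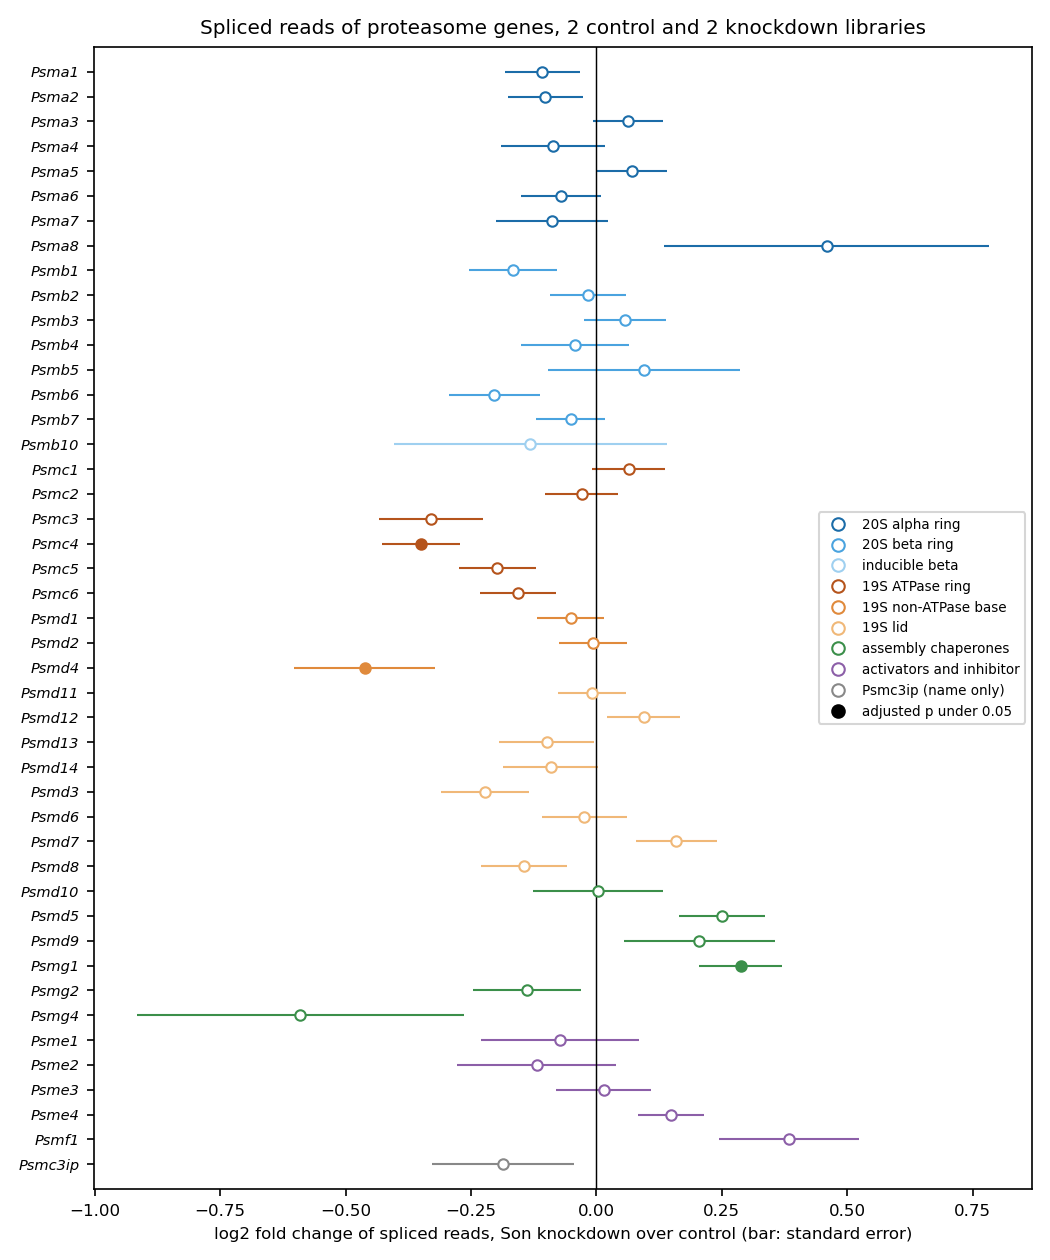
Log2 fold change of spliced reads, knockdown over control, with standard error, for 45 proteasome genes ordered and coloured by role (2 control and 2 knockdown libraries); filled points passed an adjusted p of 0.05. Most genes lie within 0.25 of 0, and the filled points are Psmc4 at -0.35, Psmd4 at -0.46 and Psmg1 at 0.29.

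In the long reads, with 1 library per group and no test, 46 proteasome genes had at least 20 reads. Their median log2 ratio of CPM (reads scaled to the library total) was 0.05, against -0.01 over all 9616 genes. Only Psma8 was at least 2-fold higher, against 2.2% of all genes, with 13 control and 19 knockdown reads, and 0 were at least 2-fold lower, against 4.16%. Psmg4 had the lowest ratio, -0.72, from 214 to 79 reads. Psma1 followed at -0.47 with 756 and 332 reads, and Psmd3 at -0.43 with 249 and 112. For the genes called in spliced reads, the ratios were -0.24 for Psmc4 (751 and 388 reads), -0.17 for Psmd4 (542 and 294) and -0.13 for Psmg1 (234 and 130). The ratio thus had the sign of the total RNA change for Psmc4 and Psmd4 and the opposite sign for Psmg1. Psmb6 was at -0.02, with 2178 and 1307 reads. The labels name a total RNA knockdown sample as starting material of both long-read libraries, so the 2 assays may share RNA and no correlation between them is given. For the control library this conflicts with its title and treatment label, from which its group was taken. Son had 70.4 CPM in the control and 19.7 CPM in the knockdown long reads.

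**Figure D4:**
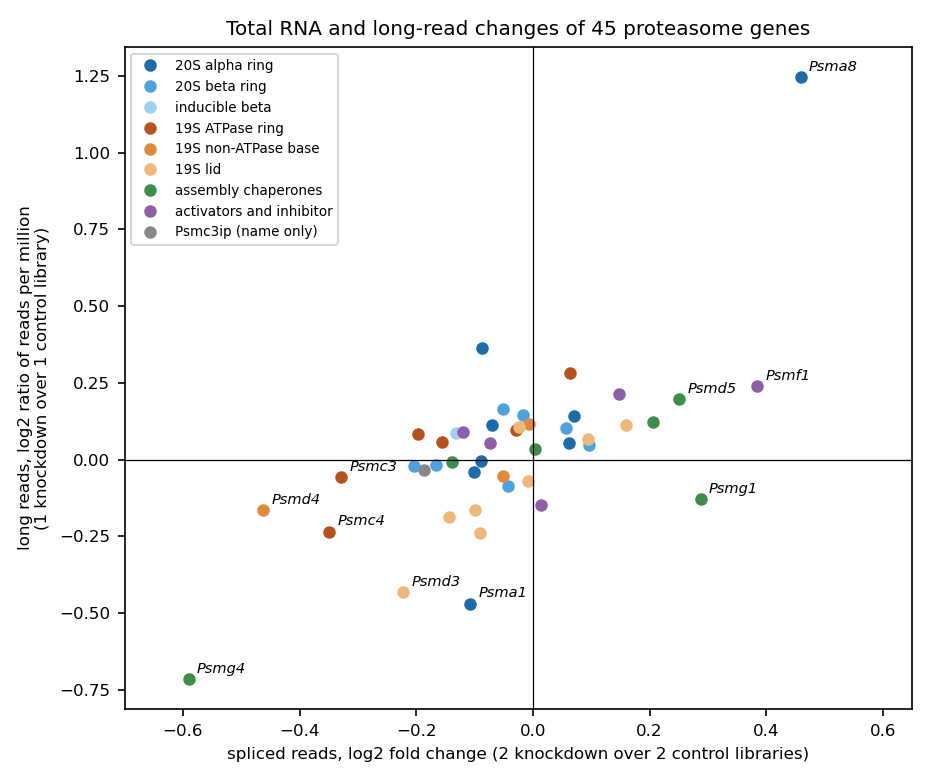
Log2 fold change of spliced reads (x, 2 knockdown over 2 control libraries) and log2 ratio of long-read CPM (y, 1 knockdown over 1 control library), 1 point per gene, coloured by role. Psmg4 is low on both axes at -0.59 and -0.72, Psma8 high on both at 0.46 and 1.25 with few reads, and Psmg1 lies at 0.29 and -0.13.

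Of 82 proteasome transcripts with at least 20 long reads, 2 had ratios of 2-fold or more towards the knockdown, against 3.35% of 13689 transcripts, and 2 were at least 2-fold lower, against 5.81%. The higher ones were Psmb4-203, a retained-intron model, with 5 and 15 reads, and Psma8-201 with 10 and 15. The lower ones were Psmc4-204, a retained-intron model, with 17 and 3 reads, and Psma6-202, a model annotated as a target of nonsense-mediated decay, with 19 and 4. With at least 50 reads required, 0 passed in either direction. Among those better read transcripts, the lowest ratios were those of Psmg4-202 (log2 ratio -0.85, 187 and 63 reads), Psmb10-201 (-0.78, 63 and 22) and Psmd4-201 (-0.58, 214 and 87). The highest ratios were those of Psmb1-204 (0.77, 27 and 28 reads), Psmb10-207 (0.75, 96 and 98) and Psmg3-202 (0.43, 33 and 27).

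Retained-intron models took 2.76% of the long reads of proteasome genes in control (95% Wilson interval 2.58% to 2.96%) and 3.12% (2.87% to 3.40%) in knockdown, and 6.24% and 6.64% of the reads of all genes. The intervals cover counting error only, and those of the proteasome genes overlap. Of 14 retained-intron models with at least 20 reads, 10 had a log2 ratio above 0, against 6892 of 13689 transcripts of all kinds. The share among retained-intron models of all genes is not given, and several of the 14 belong to the same gene. The best read was Psmb6-202, with 138 and 96 reads, or 6.34% (5.39% to 7.44%) and 7.35% (6.05% to 8.89%) of the reads of Psmb6. Psmb6-203 had 20 and 15 reads and Psmb6-204 had 13 and 12.

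The inducible subunit gene Psmb10 had most of its reads on 2 short retained-intron models. Psmb10-205 held 124 and 62 reads, 40.3% and 31.2% of the gene. Psmb10-207 held 96 and 98 reads, 31.2% (26.3% to 36.5%) in control and 49.2% (42.4% to 56.1%) in knockdown. Its intervals did not overlap, but they cover counting error only. The share of all transcripts with such intervals is not given. The coding model Psmb10-201 went from 20.5% (16.3% to 25.3%) to 11.1% (7.41% to 16.2%). The gene as a whole had a log2 ratio of 0.09. In the other retained-intron models, Psmc2-202 had 69 and 40 reads, Psmc3ip-202 25 and 22, Psma3-203 26 and 24, Psma7-202 23 and 17, Psmb3-202 19 and 18, Psmb3-203 12 and 9 and Psmd4-205 15 and 6.

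The 5 proteasome genes without an intron in all 4 tables were 3 subunits of restricted expression, a further 11S family member and a chaperone. Of the inducible subunits, Psmb9 had 1 intron in 1 table and Psmb8 had none; their long reads were 2 and 8 for Psmb9 and 1 and 0 for Psmb8. Psmb11, the thymus-specific subunit, had 0 reads in both libraries, and Psme2b had 0 and 1. A count of 0 allows up to 0.974 CPM in the control and 1.60 in the knockdown library. Psmg3, a chaperone of the alpha ring, had 99 and 83 long reads, a log2 ratio of 0.46. All 3 annotated introns of Psmg3 are overlapped by an exon of another model. The same holds for 6 of 7 introns of Psmb8 and 5 of 7 of Psmb9. Psme2b has 0 introns in protein-coding models, so its absence from the tables does not speak of its level.

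Other genes of the pathway were taken from fixed lists. Of 9 proteasome-bound and assembly factors outside the naming rule, 8 were listed. Of their 74 tested introns 1 passed with lower efficiency (edgeR, adjusted p under 0.05), against 1.71% of all tested introns. It was number 13 of Ecpas, a proteasome-binding scaffold, with efficiencies of 1.00 and 1.00 in control and 0.978 and 0.951 in knockdown. Both knockdown libraries lay below the controls, while over its 36 listed introns Ecpas had a log2 odds ratio of 0.02. Sem1, a small lid subunit outside the naming rule, rose in efficiency from 0.95 and 0.946 to 0.990 and 0.977 over its 1 listed intron (log2 odds ratio -1.83, edgeR adjusted p = 0.0441). It was the 1 gene of these 8 that passed for efficiency, where 0.128% of all 9370 genes passed with higher efficiency. The median log2 fold change of spliced reads was 0.04 over these 8 factors, 0.05 over 3 listed regulators of proteasome genes, 0.02 over the p97 unfoldase with its cofactors (6 genes) and -0.01 over 5 tested ubiquitin and E1 genes. The regulators Nfe2l1 and Nfe2l2, transcription factors of proteasome genes, were at -0.07 and 0.13, and neither passed.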

How the data were processed

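Total RNA tables hold counts that the authors deposited per intron: split and unsplit reads at both junctions from SPLICE-q, per the labels. Their score is a fraction, which on checking equalled the split share of the deposited counts. Long-read tables hold counts per transcript, deposited by the authors with transcript lengths. The submitters' processing notes list GRCm39, SAMtools and minimap2 without roles. The use of strand is not given in the sources used here, and 19 of the 50 genes overlap a gene on the opposite strand. Of the genes with named introns, Psma5, Psmc3, Psmc3ip, Psmd9 and Psmd14 do so, and Psmb6, Psmd4, Psmd11 and Psmf1 do not. Every listed junction had at least 10 reads.

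Introns were reduced to 1 entry per position and kept if listed in all 4 libraries. Split and unsplit counts, both junctions summed, were tested by quasi-likelihood in edgeR 4.0.16 (R 4.3.3), with a term per library, unsplit reads, and unsplit reads in the knockdown, where the libraries together gave 10 or more reads of each kind. A read spanning an intron counts at both junctions. The same model was used for reads summed per gene over introns of 1 gene only, and TMM with filterByExpr for spliced reads. P-values were adjusted by Benjamini-Hochberg over all features of the table. Standard errors are the estimate over the square root of F. For long reads, 0.5 reads were added before taking ratios, and features under 20 reads in total were left out. DESeq2 1.42.0 and limma 3.58.1 were alternatives, and the edgeR models were tested on simulated data. There the intron test found 5% of 2-fold and 70% of 4-fold changes in the odds of unsplit reads. The gene test of efficiency found 25% and 96% of these, and that of spliced reads 15% of 1.5-fold and 87% of 2-fold changes. The simulated reads had the same dispersion for every feature, with changes planted only above a minimum of reads. Rates in the real data may differ. A feature that did not pass may therefore still have changed.

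Introns were matched to GENCODE M21 by transcript and order: 99.9% of 68093 compared had the same length, while positions are of another build, so the printed positions are those of the GRCm38 match. Members, lists and tests were chosen with earlier results of these data known. Named were members called in a test, the lowest and highest of each class, members not listed in all tables, introns of 50 or more reads per library (5 largest falls, 3 largest rises, 5 least spliced), transcripts with at least 50 long reads (3 largest rises and falls), retained-intron models with at least 20 reads, called pathway genes, and Son; genes near a threshold, best expressed genes and the 2 Nfe2l genes were chosen after their values were seen. Replicate numbers did not mark shared deviations (correlations of 0.00846 over introns and 0.00174 over genes), and replicates differed by more than sampling noise. The knockdown replicates differed more than the control replicates, with a chi-square per gene of 9.66 against 3.01 over 8893 genes. One list of pathway genes is not reported here.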

Additional observations from a re-analysis of the deposited data

How the results depend on the processing

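Counts of calls depended on the tool and on single libraries. For proteasome introns with lower efficiency, the count of 1 became 0 with 5′ junctions alone, with 3′ junctions alone, with DESeq2 and with limma. The counts over all introns were then 232, 322, 294 and 0. Psmb6 intron 1 had no unsplit reads at its 5′ junction, so it could not be tested with 5′ junctions alone. With 3′ junctions alone its log2 odds ratio was still 1.34 (edgeR adjusted p = 0.0759). Leaving out 1 library gave 0 to 2 proteasome introns and 171 to 1427 introns in all. Scaling split and unsplit reads separately added 1 proteasome intron with higher efficiency, Psmg1 intron 3, and 1 gene, Psmc1. For genes with lower efficiency, the count of 2 became 1 with 3′ junctions and 0 with 5′ junctions, DESeq2 and limma, where limma called 0 genes in all; leaving out 1 library gave 0 to 2 proteasome genes and 180 to 702 in all. For fewer spliced reads, the count of 2 became 1 with 3′ junctions and with DESeq2 and 0 with the best covered intron, which called 290 genes in all and 0 proteasome genes with more reads. Leaving out 1 library gave 0 to 9 proteasome genes with fewer and 0 to 7 with more spliced reads, and 381 to 2193 genes in all. Where 1 library is left in a group, it is assumed to vary like those of the other group. The cause was not tested.

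The replicate numbers share only a number. With a replicate block, 1 proteasome intron (1626 introns in all), 3 proteasome genes for efficiency (2 lower and 1 higher, Psmd5; 1018 genes in all) and 5 for spliced reads (3 with fewer and 2 with more; 1000 genes in all) were called.

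For long-read transcripts at least 2-fold lower, a pseudocount of 5 reads left 0 proteasome transcripts and 231 of 796 in all, and 135 of 400 genes. Requiring 50 reads left 0 proteasome transcripts in both directions, 88 higher and 257 lower in all, and 0 proteasome genes, 50 genes higher and 188 lower in all. The sign changed in 3 named values that passed no test: Psmf1 intron 6 with 5′ junctions alone (0.18), Psmd11-206 intron 4, from -0.30 to 1.31 without 1 library, negative without knockdown replicate 2, and the efficiency of Psmg1, from -0.33 to 0.049 without 1 library, positive without control replicate 2. The median log2 odds ratio of proteasome introns ranged from -0.27 to 0.18 without 1 library, and that of all introns from -0.0046 to 0.26. The median efficiency of proteasome introns stayed within the spread of replicates in every alternative run, with differences from -0.0041 to 0.0050 without 1 library.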
